A study of Sus scrofa with 44 samples.

Results

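TMOD4 and SCNM1 are 2 protein-coding pig genes that lie next to each other on chromosome 4 on opposite strands, and they are described here as 2 of the 22427 genes in the deposited expression files. They were chosen by their level in TPM, a transcript's share of all transcripts after correction for length, in the muscle libraries: SCNM1 (ENSSSCG00000006632) was listed at 0 from the stage at which TMOD4 (ENSSSCG00000006631) had a level in every library. Their levels are therefore given as a description, without a test. The study sampled longissimus dorsi, a back muscle, of prenatal pigs. Its 6 stages, called E33, E40, E50, E60, E70 and E95, are named for the day post coitus and have 3 input libraries and 3 samples immunoprecipitated for N6-methyladenosine (m6A) each, all from rRNA-depleted RNA. The 18 muscle input libraries have TPM files, and 8 peak lists give where immunoprecipitated RNA was enriched, 1 for each stage and 2 for PK15, a pig kidney cell line, prepared from polyA RNA or from rRNA-depleted RNA. No genotype, breed or agent that would set the groups apart is named in the labels, where the groups of muscle differ by age alone. A difference between stages that the labels do not record cannot be told apart from age. The labels do not say whether libraries of a stage came from separate animals, so p-values measure the spread between these libraries, which may be technical.

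Tropomodulins cap the slow-growing, pointed end of the actin filament, and by doing so they set the length of the thin filaments that slide past myosin in the sarcomere. TMOD4 is a tropomodulin known from skeletal muscle, TMOD3 is found in most tissues, and leiomodins are related proteins that promote actin assembly at the same end. SCNM1 is a zinc finger protein of the minor spliceosome, the machinery that removes the rare U12-type introns from a small set of genes. The pair thus joins a muscle structural gene and a gene of a process used in many cell types.

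In RefSeq's annotation of Sscrofa11.1, the build that the submitters' processing notes name, TMOD4 runs on the plus strand of chromosome 4 from 98074380 to 98079346, with up to 10 exons in 4 transcripts. SCNM1 runs on the minus strand from 98079844 to 98082374 in 7 exons. The 2 genes point at each other, tail to tail, with 497 bases between their ends. VPS72, which codes for a subunit of chromatin remodelling complexes, ends 305 bases before the TMOD4 start on the plus strand. LYSMD1, which codes for a LysM domain protein, starts 176 bases from the SCNM1 start and runs the other way. All 31 splice junctions inside the peaks that the lists name for VPS72, TMOD4, SCNM1 or LYSMD1 lie exactly at RefSeq introns, so that the coordinates of lists and annotation match here.

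The 4 m6A peaks over the pair are what the lists hold on its methylation, so their coding sequence is shown first, read from the genome 5′ to 3′ in the direction of the gene they overlie. Capitals mark each match to the m6A consensus DRACH, a fixed AC after a purine, with any base but C before the purine and any base but G at the end, searched on the printed strand with overlaps allowed. In the E95 list, the peak named for TMOD4 covered TMOD4 exons 2 and 3. The coding part in exon 2 is chr4:98075607-98075729 and the part in exon 3 is chr4:98075935-98075977, both on the plus strand:
TMOD4 exon 2: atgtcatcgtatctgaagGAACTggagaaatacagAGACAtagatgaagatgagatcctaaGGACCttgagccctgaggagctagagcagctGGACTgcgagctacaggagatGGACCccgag
TMOD4 exon 3: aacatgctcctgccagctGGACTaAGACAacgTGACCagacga
The exon 2 stretch opens with the start codon and holds 5 matches, and the exon 3 stretch holds 3. Among the 5386 peaks of the E95 list whose longest block has at least 123 bases, 94.4% held a match in their middle 123 bases, with a median of 3.0 matches, and 16.8% held 5 or more. Of 7961 middle stretches of 43 bases in that list, 64.9% held a match and 6.16% held 3 or more. A match is a description of the letters and locates no methylated base.

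In the PK15 polyA list, a peak named for TMOD4 lies inside SCNM1, at chr4:98081869-98082019, and a peak named for SCNM1 covers SCNM1 exon 1, whose coding part is chr4:98082205-98082255. The list gives the peak named for TMOD4 on the plus strand and that named for SCNM1 on the minus strand. Both are printed on the minus strand, the direction of SCNM1:
PK15 peak named for TMOD4: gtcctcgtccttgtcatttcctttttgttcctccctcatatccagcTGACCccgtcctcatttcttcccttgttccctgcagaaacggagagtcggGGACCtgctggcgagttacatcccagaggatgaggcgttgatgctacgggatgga
SCNM1 exon 1: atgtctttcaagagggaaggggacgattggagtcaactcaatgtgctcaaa
The first stretch runs from the end of SCNM1 intron 1 into exon 2 and holds 2 matches on that strand, where 95.5% of 12082 stretches of 151 bases from that list held at least 1. Those 2 matches lie opposite to the strand listed for this peak, so the 95.5% may not be a like background for them. The coding part of exon 1 holds none, where 66.7% of 16161 stretches of 51 bases held at least 1. The absence says only that these letters are not in this window. The peak's block in exon 1 has 113 bases, and those outside the coding part were not searched.

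TMOD4 went from a listing at or near 0 in all libraries but 1 up to E60 to a level in every library of E70 and E95, and SCNM1 from a low level to 0. TMOD4 was listed at exactly 0 in 6 libraries and at 1e-06 TPM, the smallest value in the files, in 5 libraries of E33, E40, E50 and E60. The exception among the 12 libraries of those stages was replicate 3 of E60, with 2.73 TPM. At E70 the 3 libraries held 18.99, 18.46 and 18.10 TPM, and at E95 they held 57.5, 66.8 and 83.0 TPM. The E70 libraries all lay above every earlier library, and the E95 libraries all lay above those of E70.

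SCNM1 had a level in each of the 12 earlier libraries. It was at 5.77, 11.9 and 15.4 TPM at E33, at 12.7, 3.24 and 10.5 TPM at E40, at 8.01, 8.98 and 3.50 TPM at E50 and at 9.88, 14.3 and 11.6 TPM at E60. It was then listed at exactly 0 in all 6 libraries of E70 and E95. No library of the last 2 stages overlapped with any earlier one. In 17 of the 18 libraries exactly 1 of the 2 genes was at or below 0.001 TPM, and in the remaining library, replicate 3 of E60, both had a level.

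**Figure D1:**
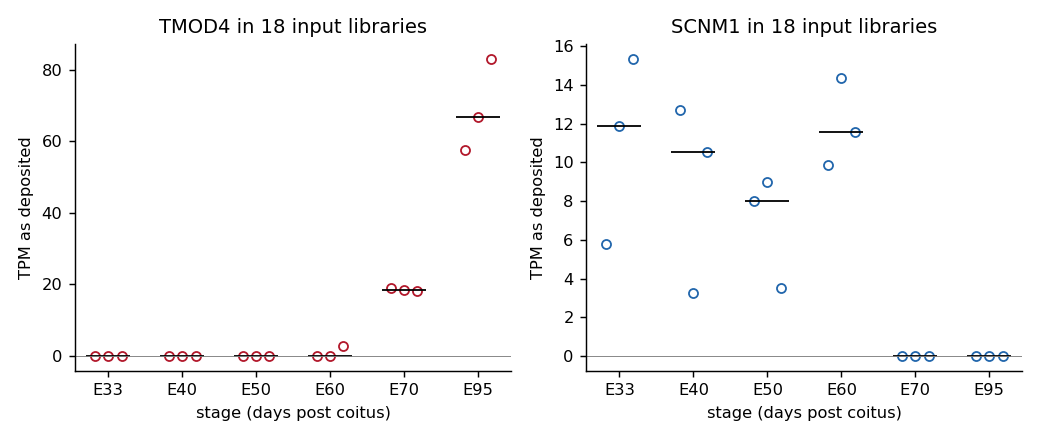
TPM as deposited (linear axes, with their own range per panel) of TMOD4 and SCNM1 in the 18 input libraries; circles are libraries and the black line is the median of a stage. TMOD4 reaches 18.1 TPM or more in all 6 libraries of E70 and E95, and SCNM1 is at 0 in the same 6.

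Because 1 gene without a symbol held between 37.4% and 72.4% of all TPM in a library, levels were also compared after each library was divided by a median-ratio size factor, which ran from 0.305 to 2.01. On these scaled values TMOD4 was at 18.3 ± 1.37 TPM (SD, n = 3) at E70 and at 99.5 ± 13.8 TPM (SD, n = 3) at E95, a ratio of 5.43, against 3.73 on the deposited values. SCNM1 was at 6.30 ± 1.68 TPM at E33, 7.66 ± 1.34 at E40, 8.98 ± 2.21 at E50 and 9.32 ± 1.39 at E60 (SD, n = 3 each). Neighbouring stages in that order did not differ beyond their spread. On the deposited values the order was another, with E60 highest at 11.9, E33 at 11.0, E40 at 8.82 and E50 lowest at 6.83 TPM. Those means include replicate 2 of E40 at 3.24 TPM and replicate 3 of E50 at 3.50 TPM. In these libraries another gene without a symbol held 17.3% and 14.4% of all TPM, and the size factors were 0.467 and 0.305. The sum of both genes on the scaled values overlapped between neighbouring stages from E33 to E60 and ran from 4.84 TPM in the lowest E33 library to 11.4 TPM in the highest E50 library. It was 16.9 to 19.7 TPM at E70 and 88.1 to 115 TPM at E95.

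On the log2(scaled TPM + 1) scale, TMOD4 was 3.73 higher at E70 than at E60 and SCNM1 was 3.36 lower, or -3.36 as a signed difference. Both sizes depend on the pseudocount: with 0.1 in place of 1 they were 6.04 and -6.55. SCNM1 was listed at 0 in all E70 libraries, and TMOD4 at or near 0 in replicates 1 and 2 of E60. Without replicate 3 of E60, at 2.73 TPM, the TMOD4 difference was 4.27. No fold change is given because of these listings. An exact 0 in such files can be a failed estimate as well as a lack of RNA, and depth is unknown for these libraries, so that only the listing at 0 is reported. In bulk tissue, fewer cells of a type and less RNA per cell cannot be told apart.

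Markers of muscle and of other cells moved over the same stages. The summed scaled TPM of the 6 matched skeletal muscle markers of 8 (MYOD1, MYOG, DES, ACTA1, TNNC2 and CKM), all above 1 TPM at every stage, ran from 1103 to 1240 at E33, from 3750 to 5892 at E60, from 8191 to 10008 at E70 and from 11759 to 18225 at E95. The 4 matched neuron markers of 5 summed to between 103 and 133 at E33, 5.87 and 15.3 at E60, 3.08 and 15.1 at E70 and at most 4.598 at E95, with 3 of the 4 below 1 TPM from E60 on. The 2 matched blood markers of 4 summed to between 74.4 and 215 at E33 and to at most 10.3 in every later library. That fall was of HBZ alone, with a mean of 129 at E33 and 2.98 at E40. The other marker, ALAS2, had means of 1.26 at E33, 2.02 at E40 and 3.96 at E60. The 4 cartilage markers ran from 111 to 158 at E33 and from 28.6 to 37.1 at E95, the 3 endothelial markers from 15.6 to 20.3 and from 57.2 to 69.0, and the 3 fibroblast markers from 2169 to 2931 and from 4720 to 7345. The fibroblast sum was carried by the collagens COL1A1 and COL3A1, while the mean of the third marker, PDGFRA, was 43.8 at E33 and 18.4 at E95. Their part in the levels of the pair was not tested. Between E60 and E70, the step at which the pair changed places, the ranges overlapped for the neuron, blood, cartilage, endothelial and fibroblast lists and not for the muscle list. The muscle sum was carried mostly by ACTA1 and TNNC2, which are also on the thin filament list. The regulators MYOD1 and MYOG had means of 124 and 154 scaled TPM at E60 and of 131 and 141 at E70.

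Most of the other thin filament genes were already higher at E60 than at E33, before TMOD4 had a level in all libraries of a stage. Of the 24 genes of the thin filament list, which holds regulators of filament ends, actins, nebulin, tropomyosins and troponins, 20 were found in the files by symbol and 19 had a mean of at least 1 TPM and were tested (limma, adjusted over 13334 genes). TMOD1, LMOD3, TPM3 and KLHL41 were not matched by symbol, and TMOD2, a tropomodulin known from neurons, was at a mean of 0.153 TPM. From E33 to E60, 13 of the 19 were higher and 0 lower, where 25.0% of all tested genes changed, 12.6% higher and 12.5% lower. The list's median log2 difference was 0.87 against -0.01 over all tested genes. On the deposited values, which moved the median of all genes by -0.34, 4 of the 13 passed, and all 13 kept a positive sign there.

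The 13 that rose from E33 to E60 included the fast-fibre troponin genes. TNNI2, the inhibitory subunit, went from 174 to 2457 mean scaled TPM, a log2 difference of 3.79 ± 0.21 (SE), with an adjusted p of 2.5e-08 in limma. TNNT3, the tropomyosin-binding subunit, rose by 3.21 ± 0.16 and TNNC2, the calcium-binding subunit, by 1.86 ± 0.19 on the log2 scale. LMOD2, the leiomodin of striated muscle, rose by 2.90 ± 0.30, from 9.83 to 83.6 TPM. ACTA1, skeletal muscle actin, rose by 2.51 ± 0.25, from 394 to 2308 TPM, and NEB, the giant protein that runs along the filament, by 1.38 ± 0.13. TPM2, KLHL40, CFL2, TNNI1, TPM1, ACTC1 and CAPZA2 made up the rest, with log2 differences from 1.70 down to 0.49. The 6 that did not pass were TMOD3, LMOD1, TNNC1, TNNT1, CAPZA1 and CAPZB, between -0.24 and 0.68. While these genes rose, TMOD4 was listed at 0 or 1e-06 TPM in 11 of the 12 libraries of E33 to E60.

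From E60 to E70, when TMOD4 appeared, 4 of the 19 genes were higher and 0 lower, where 1.76% of all tested genes changed, 1.21% higher and 0.555% lower. The list's median difference was 0.31 against 0.00 for all genes, and it was -0.03 on deposited values and 0.21 after quantile normalization. TPM1, a tropomyosin, rose by 1.03 ± 0.17 (SE, adjusted p of 0.00655 in limma), from 193 to 389 TPM. TNNC2 rose by 0.94 ± 0.19, TNNT3 by 0.74 ± 0.16 and CAPZA2, a subunit of the protein that caps the opposite, barbed end, by 0.45 ± 0.11. After quantile normalization TPM1 alone of the 4 passed, and on deposited values none did. The count was 1 without replicate 1 or replicate 3 of E70, 2 without replicate 1 or 2 of E60 or replicate 2 of E70, and 7 without replicate 2 of E95. The number of all genes called, 235, fell to between 102 and 148 when replicate 1, 2 or 3 of E60 or replicate 1 or 3 of E70 was left out.

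From E70 to E95, where TMOD4 was higher again, 1 of the 19 was higher and 2 were lower, where 13.5% of all tested genes changed, 6.61% higher and 6.87% lower. The list's median was 0.06 against 0.00 over all genes, -0.47 on deposited values and -0.06 after quantile normalization. TNNC2 rose by 0.78 ± 0.19 (SE, adjusted p of 0.0144 in limma), a call that did not hold after quantile normalization, where its adjusted p was 0.217. ACTC1, cardiac actin, fell by 0.74 on the log2 scale, from 3933 to 2376 TPM, with an adjusted p of 0.00254 in limma. LMOD1, the leiomodin known from smooth muscle, fell by 1.06, from 16.6 to 7.41 TPM. None of the 3 passed on deposited values, where each kept its sign. The count was 6 without replicate 2 of E50 and 5 without replicate 1 of E60.

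Among genes for the pointed end itself, the order of TMOD3 and TMOD4 in levels per transcript length turned over. TMOD3 was above TMOD4 in 12 of 12 libraries from E33 to E60, and TMOD4 was above TMOD3 in 6 of 6 libraries of E70 and E95. The pair was chosen for its levels in these same libraries, so this turnover was largely set by the choice. TMOD1, not matched by symbol, is not part of this order. TMOD3 itself did not pass the test at any step, at 4.21 ± 0.42 scaled TPM at E33, 3.41 ± 0.48 at E60, 3.15 ± 0.18 at E70 and later 2.88 ± 0.18 in E95 libraries (SD, n = 3). At E95 the scaled TPM of TMOD4, 88.1 to 115, lay below the 106 to 164 of LMOD2 with an overlap, and far above the 2.69 to 3.06 of TMOD3. Of the 19 tested thin filament genes, 13 had a higher mean than TMOD4 at E95 and 6 a lower one. No listed thin filament gene among the 19 was at or below 0.001 TPM in any library.

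**Figure D2:**
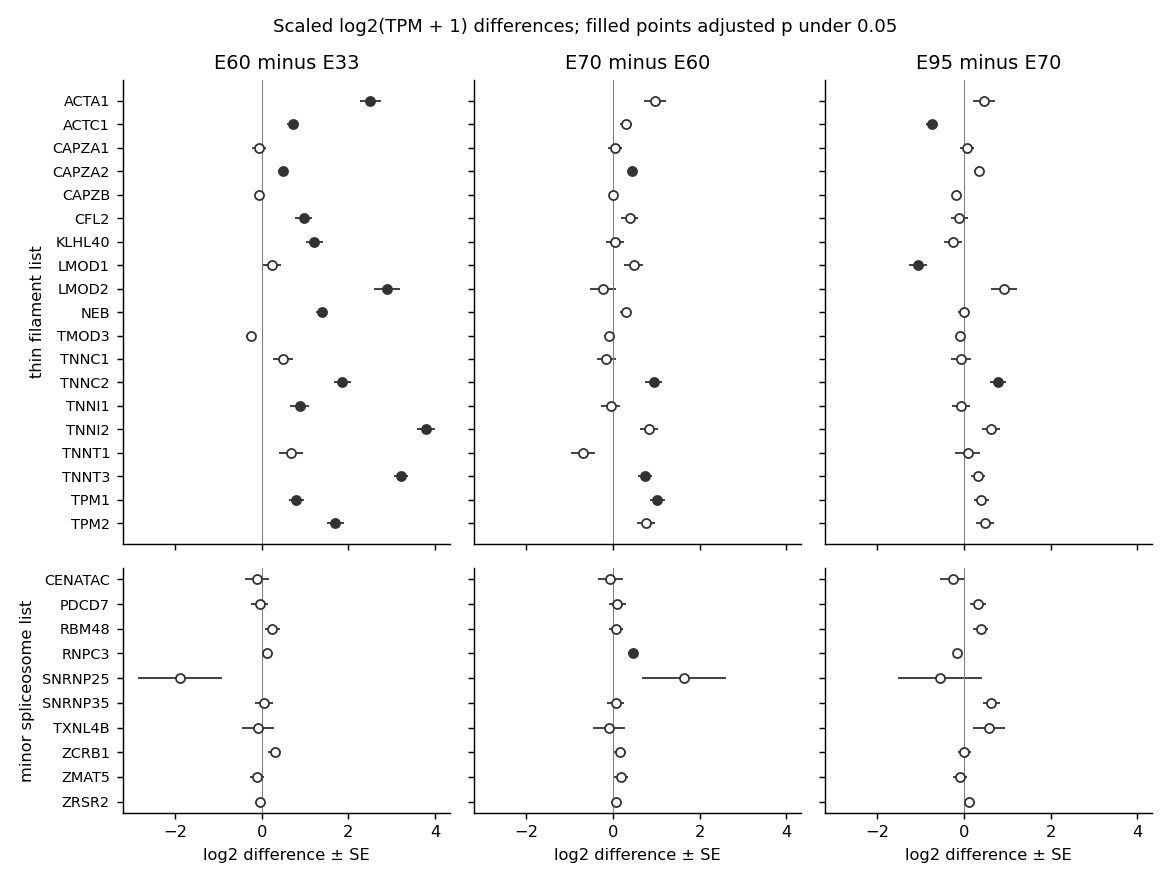
Differences in log2(scaled TPM + 1) for the 19 tested thin filament genes (top) and the 10 tested minor spliceosome genes (bottom) in 3 steps; bars are standard errors from the fit and filled points have an adjusted p under 0.05. Of the thin filament genes 13 rose in the first step, 4 in the second and 1 in the third, with 2 lower, and 1 minor spliceosome gene, RNPC3, rose in the second.

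The other genes of the minor spliceosome had few calls. Of the 12 on the list, 10 were matched and tested; SNRNP48 and ARMC7 were not matched by symbol. From E33 to E60, 0 of the 10 passed in limma, beside 25.0% of all tested genes, and 0 had an unadjusted p under 0.05. From E60 to E70, where SCNM1 went to 0, 0 of the 10 were lower and 1 was higher, beside 0.555% and 1.21% of all tested genes, so that a count of 0 lower among 10 genes is near the background. It was RNPC3, which binds U12 small nuclear RNA, at 2.89 ± 0.02 and 4.36 ± 0.32 scaled TPM (SD, n = 3) and a log2 difference of 0.46 ± 0.11 (SE, adjusted p of 0.0494 in limma). That call stood in 7 of the 25 fits that held the gene, the main one included, and was lost without any 1 of replicates 1 and 2 of E33, 1, 2 and 3 of E40, 3 of E50, 1, 2 and 3 of E60 and of E70, and 1 of E95. From E70 to E95, 0 of the 10 passed in limma, beside 13.5% of all tested genes, and 2 had an unadjusted p under 0.05.

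The median log2 differences of the minor spliceosome list were -0.04, 0.09 and 0.06 in the 3 steps, against -0.01, 0.00 and 0.00 over all genes. On deposited values the medians were -0.38, -0.19 and -0.39. SNRNP35, a protein of the U11/U12 particle, was at 6.03 scaled TPM at E70 and 10.03 at E95, with an adjusted p of 0.0509 in limma. It passed without replicate 1 of E33, replicate 1 or 2 of E50 or replicate 1 of E95, each of which gave a count of 1. PDCD7, ZRSR2, ZCRB1 and RBM48, also of this machinery, differed by at most 0.38 on the log2 scale at each step and did not pass.

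SNRNP25, another protein of the U11/U12 particle, was the only other gene of the list with libraries at 0. It was listed at 0 in replicate 2 of E50 and in replicate 2 of E60, beside 16.5 and 3.26 TPM in the other libraries of E50 and 12.3 and 14.7 TPM in those of E60. At E70 it was at 21.1, 17.7 and 9.55 TPM. Its zeros thus fell in single libraries of a stage, while those of SCNM1 filled 2 whole stages. SCNM1 was chosen for its listing at 0 from E70 on, so its side of this contrast was largely set by the choice.

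The genes around the pair had levels at all stages. The 5 RefSeq coding genes on each side are PI4KB, ZNF687, PSMD4, PIP5K1A and VPS72 before TMOD4, and LYSMD1, TNFAIP8L2, SEMA6C, GABPB2 and MLLT11 after SCNM1. Of these 10 neighbours, 9 were above 0.001 TPM in all 18 libraries, and TNFAIP8L2 was listed at 0 in 1. VPS72 had 16.4 ± 0.82 scaled TPM (SD, n = 3) in E60 libraries, 16.3 ± 1.17 in those of E70 and 20.6 ± 1.12 in those of E95. LYSMD1, which faces the SCNM1 start, was at 7.22 ± 1.79, 7.51 ± 1.04 and 9.86 ± 0.69 scaled TPM at the same stages. Neither passed the test at any of the 3 steps.

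SEMA6C, a transmembrane semaphorin, was the neighbour that did. It was 0.64 ± 0.10 higher on the log2 scale at E70 than at E60 (SE, adjusted p of 0.00457 in limma) and 0.93 ± 0.10 higher at E95 than at E70 (adjusted p of 3.5e-05), going from 31.4 to 49.4 and 95.3 scaled TPM. On deposited values both differences stayed positive, at 0.31 and 0.39, and did not pass. From E33 to E60, 0 of the 10 neighbours passed in limma, where 25.0% of all tested genes did, and 0 had an unadjusted p under 0.05. SEMA6C was the 1 call among the 10 from E60 to E70 and from E70 to E95, beside 1.76% and 13.5% of all tested genes, and 1 and 4 of the 10 had an unadjusted p under 0.05. PI4KB, a lipid kinase, was at 12.5 scaled TPM at E70 and 10.5 at E95, a log2 difference of -0.24 with an adjusted p of 0.126 in limma. It passed as lower after quantile normalization (-0.30, adjusted p of 0.0379), without replicate 3 of E50, and without that library and replicate 2 of E40 together.

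**Figure D3:**
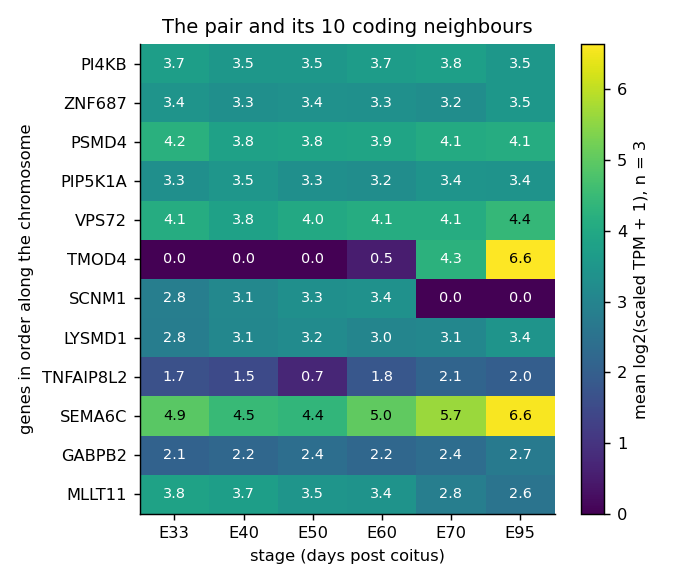
Mean log2(scaled TPM + 1) over 3 libraries per stage of TMOD4, SCNM1 and the 5 coding genes on each side, in chromosomal order (printed value and colour; a value of 0.0 for the pair means listed at or near 0). The TMOD4 value at E60, 0.54 before rounding to 1 decimal, comes from replicate 3 alone; the rows beside the pair stay above 0 at all stages.

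Genes with the pattern of TMOD4 were sought by Pearson's r of log2(scaled TPM + 1) over the 18 libraries among the tested genes, which is a description, since libraries of a stage share their age. The 5 with a symbol that came closest were HMCN2 (r = 0.99), FRZB (r = 0.98), ATP2A1 (r = 0.97), ART3 (r = 0.97) and MYBPC2 (r = 0.97). ATP2A1, the calcium pump of the fast-fibre sarcoplasmic reticulum, was at 40.6 ± 5.77 scaled TPM at E60, 107 ± 8.86 at E70 and later 269 ± 24.6 in E95 libraries (SD, n = 3). MYBPC2, the fast-fibre myosin binding protein C, was at 1.01 ± 0.32, 7.76 ± 0.94 and 42.5 ± 11.3 scaled TPM. FRZB, a secreted Wnt antagonist, was at 0.864 ± 0.346, 3.49 ± 0.45 and 6.81 ± 0.35 scaled TPM. At E33 the means of the 5 ran from 0.0974 scaled TPM for ART3 to 23.8 for ATP2A1, while TMOD4 was listed at no more than 1e-06 TPM.

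For SCNM1 the 5 closest with a symbol were DCX (r = 0.95), NTPCR (r = 0.92), PACS1 (r = 0.91), ITPR3 (r = 0.91) and UNC13B (r = 0.90), the first of which had rank 4 among all tested genes. DCX, a microtubule-binding protein known from migrating neurons, was at 7.44 ± 0.64 scaled TPM at E60, 1.41 ± 0.35 at E70 and later 0.380 ± 0.084 in E95 libraries (SD, n = 3). PACS1, a sorting protein of the trans-Golgi network, was at 22.4 ± 3.09, 14.0 ± 0.26 and 11.6 ± 0.69 scaled TPM. ITPR3, a calcium release channel, was at 1.37 ± 0.45, 0.276 ± 0.121 and 0.0101 ± 0.0005 scaled TPM. No mean of these 5 genes was at 0 at any stage. The r between TMOD4 and SCNM1 themselves was -0.94 (18 libraries). The pair was chosen for its levels in these same libraries, so a negative r was largely set by the choice.

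A listing at 0 in a whole stage beside 1 TPM or more in the whole neighbouring stage was rare in these files. From E60 to E70, 15 of 22427 genes (0.0669%), SCNM1 among them, went from at least 1 TPM in 3 libraries to at most 0.001 TPM in 3. In the other direction there were 13 genes (0.0580%), which do not include TMOD4 because of its level in replicate 3 of E60. The other steps had 12 and 38 such genes (E33 to E40, appearing and disappearing), 4 and 16 (E40 to E50), 13 and 4 (E50 to E60) and 11 and 17 (E70 to E95). Only 3 genes (0.0134%) were at or below 0.001 TPM in all 6 libraries of E70 and E95 and at 1 TPM or more in all 12 earlier ones, and 0 genes showed the reverse. They are SCNM1 and 2 genes without a symbol, ENSSSCG00000036044, at 3.49 to 37.1 TPM in the earlier libraries, and ENSSSCG00000035520, at 434 to 2948 TPM. SCNM1 was chosen for such a listing, so its presence among the 3 was largely set by the choice.

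Zeros beside clear levels also occurred between libraries of 1 stage. Of the 13334 tested genes, 942 (7.06%) were at or below 0.001 TPM in a library and at 5 TPM or more in another of the same stage. SCNM1 had no such library at any stage, which was largely set by its choice for a listing at 0 in whole stages. TMOD4 was outside the count by its limit of 5 TPM: at E60 it was at 1e-06 and 0 TPM in replicates 1 and 2 beside 2.73 TPM in replicate 3.

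Pairs of adjacent genes of which 1 was listed at or below 0.001 TPM while the other had 1 TPM or more, in at least 15 of 18 libraries and with each gene the listed one in at least 3, were then counted, a search added after the values of the pair were seen. Of 9926 adjacent pairs of genes with a symbol, 3 (0.0302%) met it: TMOD4 and SCNM1, CDHR4 and UBA7 on chromosome 13, and CLDN15 and FIS1 on chromosome 3. CDHR4, a cadherin-related gene, and UBA7, which codes for the enzyme that activates the ubiquitin-like protein ISG15, lie 1005 bases apart. In their case 17 libraries had 1 of the 2 at or below 0.001 TPM beside at least 1 TPM of the other, and the listed gene differed between libraries of the same stage in 5 of 6 stages. At E60, for example, UBA7 was at 7.03 and 4.67 TPM in replicates 1 and 3 and CDHR4 at 4.91 TPM in replicate 2. CLDN15, a claudin, and FIS1, a mitochondrial fission gene, lie 1060 bases apart, alternated in 16 libraries, and differed within 4 of 6 stages. For TMOD4 and SCNM1 the listed gene differed within 0 stages. This pair was chosen because SCNM1 was listed at 0 from the stage at which TMOD4 had a level. That its alternation followed the stages, and its place among the 3, were therefore largely set by the choice. What the assignment of reads by the authors' quantification contributed to any of the 3 pairs was not tested.

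**Figure D4:**
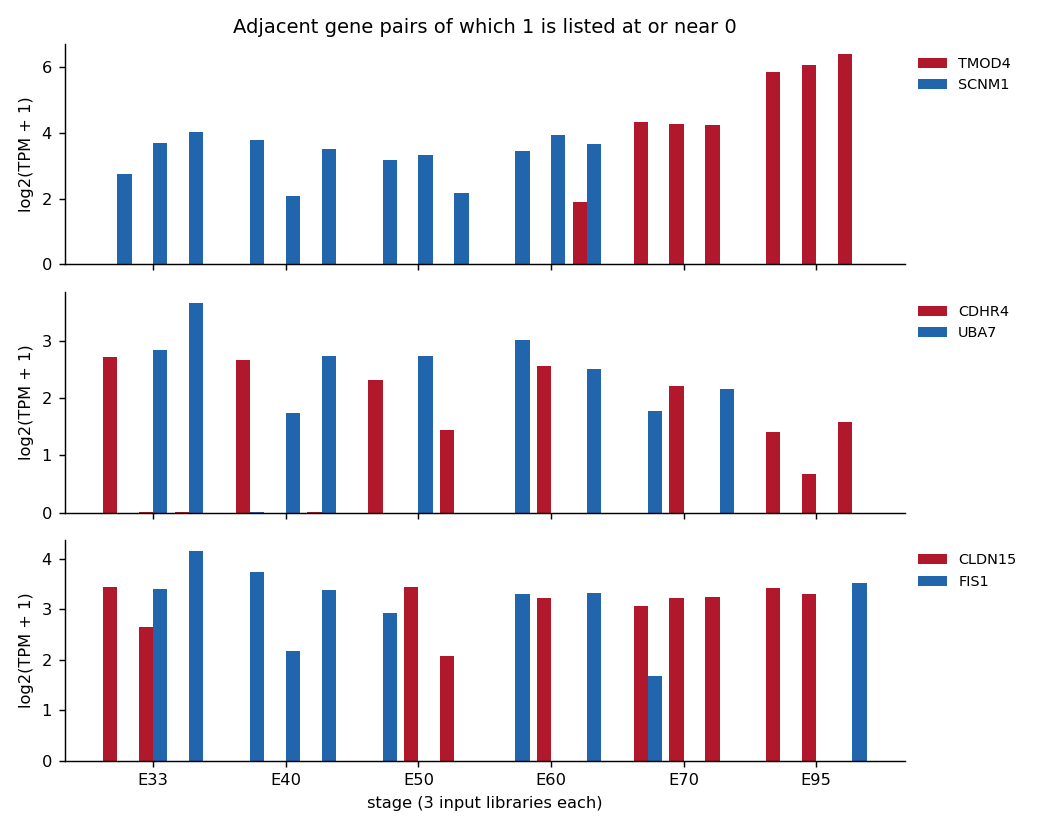
TPM as deposited, on a log2(TPM + 1) axis, of both genes of each of the 3 adjacent pairs in the 18 input libraries, grouped by stage. TMOD4 and SCNM1 change places once, between E60 and E70, while CDHR4 with UBA7 and CLDN15 with FIS1 change places between libraries of the same stage.

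Of the 8 peak lists, 2 had peaks at the pair, and these 4 peaks are the authors' calls, with the authors' fold enrichment and p-value. Each list was called once per stage or preparation, so no comparison between lists has a replicate. In the E95 list, which held 8109 peaks, the TMOD4 peak at chr4:98075593-98075977 had 2 blocks of 137 and 43 bases, a fold enrichment of 2.19 and a p-value of 3.2e-33. All its bases were in TMOD4 exons and 92.2% of them in coding sequence, at the start codon shown above. The lists of E33, E40, E50, E60 and E70 named no peak for TMOD4, though at E70 it had 18.1 TPM or more in each input library. SCNM1 had no peak in any muscle list.

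A further E95 peak, at chr4:98075582-98075791, was named for VPS72, with a fold of 2.59 and a p-value of 3.2e-35. All of it lay inside TMOD4, 70.5% of it in exon 2, and it reached 1717 bases past the RefSeq end of VPS72. VPS72 and TMOD4 run on the same strand, so the peak's strand does not tell them apart. The lists thus name overlapping stretches of 1 exon for 2 genes.

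In PK15 cells the same was seen at the other end of the pair. The polyA list held 16492 peaks, and that named for TMOD4, with a fold of 2.16 and a p-value of 3.2e-05, lay 2673 bases past the RefSeq end of TMOD4, counted to the peak's end. It had 45.7% of its bases in SCNM1 exon 2 and the rest in the intron before it. The peak named for SCNM1, at chr4:98081930-98082317 on the minus strand, had blocks of 8 and 113 bases in exons 2 and 1, a fold of 2.59 and a p-value of 1.1e-08. Its short block shares its 8 bases with the peak named for TMOD4. The PK15 list from rRNA-depleted RNA, with 9659 peaks, named none for either gene.

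All 4 peaks were low in their lists. The median fold was 4.42 in the E95 list, where 6.20% of peaks lay below the TMOD4 peak and 13.3% below the VPS72 peak, and 7.41 in the PK15 polyA list, where 3.15% lay below the TMOD4 peak and 6.997% below the SCNM1 peak. Around them, VPS72 had peaks in all 8 lists, 14 in total, and LYSMD1 had 7 peaks in 6 lists. Peaks named for 2 genes that share bases made up 7.15% of the E95 list and 11.0% of the PK15 polyA list, with 4.91% and 8.60% sharing bases with a peak of the opposite strand. The stretches named for VPS72 and TMOD4 thus reached past the RefSeq ends of both genes. Whether counting used the strand is not given in the sources used here, and the extent of the authors' models of TMOD4 and SCNM1 was not analysed here. In RefSeq the 2 genes do not overlap, while the PK15 polyA list names a plus-strand stretch inside SCNM1 for TMOD4. Where models on opposite strands do overlap, reads counted without strand cannot be told apart.

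**Figure D5:**
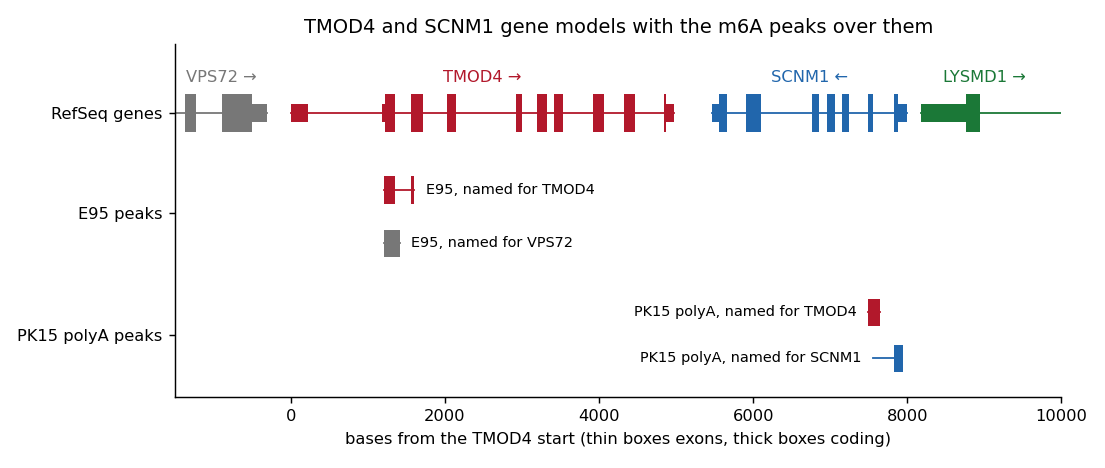
Exons (thin boxes) and coding parts (thick boxes) of TMOD4, SCNM1 and the near ends of VPS72 and LYSMD1 in RefSeq, with the 4 peaks of the E95 and PK15 polyA lists below, by distance in bases from the TMOD4 start. Both E95 peaks lie on TMOD4 exon 2, and both PK15 peaks lie in SCNM1, the upper of them named for TMOD4.

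The sequence before each start is shown because the levels of the 2 genes changed in opposite directions. The 250 bases before the RefSeq start of TMOD4 are chr4:98074130-98074379 on the plus strand. The 176 bases between the starts of SCNM1 and LYSMD1 are chr4:98082375-98082550, printed on the minus strand, so that the run ends at the SCNM1 start. Capitals mark matches on either strand to 6 motifs. The E-box was searched as CANNTG and the promoter motif of NF-Y as CCAAT. The letters GGGCGG stood for the GC box and TATAAA for the TATA box, and the last 2 motifs were the MEF2 site and the CArG box.
TMOD4 upstream: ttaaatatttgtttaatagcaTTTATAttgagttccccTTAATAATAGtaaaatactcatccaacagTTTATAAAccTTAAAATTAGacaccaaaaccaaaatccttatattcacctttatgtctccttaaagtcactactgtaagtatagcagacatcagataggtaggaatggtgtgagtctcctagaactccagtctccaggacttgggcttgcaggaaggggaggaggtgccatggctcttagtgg
SCNM1 to LYSMD1: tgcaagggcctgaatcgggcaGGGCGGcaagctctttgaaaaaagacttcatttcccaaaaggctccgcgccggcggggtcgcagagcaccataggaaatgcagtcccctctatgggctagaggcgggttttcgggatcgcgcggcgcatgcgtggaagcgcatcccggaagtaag
In the window from 250 bases before to 50 bases after the start, TMOD4 held 2 MEF2 sites, each read on both strands. It also held 3 matches to TATAAA, 2 of which overlap on opposite strands. Between these matches and the end of the printed 250 bases lay 223, 177 and 175 bases. The TMOD4 window held no E-box, CCAAT, GC box or CArG box. SCNM1 held 1 GC box and none of the other 5. Of 19548 coding promoters of RefSeq with the same window, 2.87% held a MEF2 site, 10.9% TATAAA, 67.8% an E-box, 35.4% CCAAT, 50.6% a GC box and 1.53% a CArG box. These are matches of letters, and no binding was measured here.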

How the data were processed

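The authors' deposited values are TPM, per the file headers, for 22427 Ensembl pig genes in each of 18 muscle input libraries, and every file sums to 1000000, so depth is unknown. The deposited peak lists give a fold enrichment and a p-value per peak from the authors' caller, per the file headers, 1 list per stage or preparation. Trimmomatic, HISAT2 and Sscrofa11.1 are named in the submitters' processing notes, and the quantifier, the peak caller and the strand setting are not given in the sources used here. PK15 input levels were not analysed here.

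TPM was divided by a median-ratio size factor per library. The 13334 genes whose deposited mean reached 1 TPM were fitted with limma 3.58.1 (R 4.3.3) on log2(scaled TPM + 1) over all 18 libraries, with a mean-variance trend and Benjamini-Hochberg adjustment over all tested genes. Differences on this scale understate changes of low genes. In simulated data for E60 and E70, with 13334 genes, 189 of 200 genes changed by 2 on the log2 scale were recovered. Of the unchanged genes 13 were called. Smaller differences, which include those of every tested gene of both lists at this step, were not simulated. The recovery therefore does not apply to them. Named genes are the pair, both lists, the neighbours, the 5 most alike genes with a symbol and genes on or off throughout. The members and lists were chosen with earlier results of these data known. Replicate numbers do not pair libraries by the labels. Sequences come from RefSeq's Sscrofa11.1 genome and annotation, read with pysam 0.24.0.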

Additional observations from a re-analysis of the deposited data

How the results depend on the processing

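The counts of genes called were recomputed under the deposited scale, quantile normalization, other pseudocounts and filters, a replicate block and with each library left out; of 245 recomputed values, 194 stayed within the limits set for them. On values as deposited, the calls fell from 3339 to 690 (E33 to E60), from 235 to 11 (E60 to E70) and from 1798 to 38 (E70 to E95) over all genes, from 13 to 4, from 4 to 0 and from 3 to 0 for the thin filament list, and from 1 to 0 for the minor spliceosome list from E60 to E70. With a mean of at least 5 TPM, which tests fewer genes, 2080 genes were called from E33 to E60 and 141 from E60 to E70, and the minor spliceosome list had 0 calls from E60 to E70 and 1 from E70 to E95. Quantile normalization left 1 thin filament call from E60 to E70, and no filter left 2. The single minor spliceosome call from E60 to E70 became 0 with a pseudocount of 0.1, without a filter and with E40 replicate 2 and E50 replicate 3 left out together. Those libraries were left out together because a gene without a symbol, other than the most abundant one, held 17.3% and 14.4% of their TPM. Once the mean of each stage was taken off, same-numbered libraries correlated between -0.071 and 0.064 over the 9 pairs. These values give no sign that the numbers pair libraries, and they cannot exclude it. With the replicate block the calls were 3172, 195 and 1697 over all genes. They were 13, 3 and 3 for thin filament genes and 0, 0 and 0 for minor spliceosome genes. With 1 library left out, the counts from E60 to E70 ran from 102 to 273 over all genes, from 1 to 7 for the thin filament list and from 0 to 1 for the minor spliceosome list. From E70 to E95 they ran from 2 to 6 for the thin filament list and from 0 to 1 for the minor spliceosome list. The difference between E60 and E70 for TMOD4 was 3.73, 6.04 with a pseudocount of 0.1, and 3.46 to 4.27 with a library left out. For SCNM1 it was -3.36, -3.68 as deposited, -6.55 with a pseudocount of 0.1, and -3.43 to -3.25 with a library left out. Of the 4 peaks at the pair, 0 lay above the median fold of their list, and 4 had at least 50% of their bases inside the RefSeq pair. The cause of these changes was not tested, other than the smaller number of genes or libraries where one was left out.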
